A study of Homo sapiens with 48 samples.

Results

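The genes described are the 7 translesion synthesis genes POLH, POLK, POLI, REV1, REV3L, MAD2L2 and RAD18. They were chosen by their symbols and not by their values, but with earlier results of these data known. All 7 were listed once in each table, among 14745 tested rows in GRO-seq and 15535 in RNA-seq. The cells were MCF10A-1, a human breast epithelial line whose cell type the labels give as a malignancy, and which either stably expressed SATB1, a nuclear protein that organises chromatin, or carried a control vector. Each kind of cell was untreated, exposed to 4 µM benzo[a]pyrene for 3 hours or exposed to it for 3 days, and each of these 6 groups had 4 libraries for GRO-seq and 4 for RNA-seq. All groups grew with fetal bovine rather than horse serum, with epidermal growth factor, hydrocortisone, insulin and cholera toxin. The labels do not say whether the SATB1 cells are 1 clone. They do not describe the 4 libraries of a group as separate cultures either, and p-values then measure a spread between libraries that may be technical. GRO-seq reads nascent RNA, made by polymerases engaged at the time nuclei are isolated, whereas RNA-seq reads accumulated mRNA.

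Benzo[a]pyrene is converted by CYP1 enzymes, which the aryl hydrocarbon receptor (AHR) induces, to a diol epoxide that binds guanine as a bulky adduct. Replicative polymerases stall at such adducts. RAD18 then attaches ubiquitin to the sliding clamp PCNA, which recruits Y family polymerases with open active sites to insert a base opposite the lesion, and polymerase zeta, built on the catalytic subunit REV3L and the adaptor MAD2L2 (also called REV7), extends from it. REV1 inserts cytosine and is the scaffold that holds the other bypass polymerases. POLH is the gene mutated in the variant form of xeroderma pigmentosum and a known target of p53, and polymerase kappa, the POLK product, can copy past the benzo[a]pyrene adduct on guanine with few errors.

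For each assay, the authors' deposited table lists 5 numbered contrasts, each with a linear fold change and its p-value before adjustment. No header names the groups behind a number. A gene is therefore described as higher in a contrast when its fold change exceeded 1 and as lower when it was below 1. In RNA-seq, SATB1 was 112-fold in contrast 1 in the authors' deposited table and 1.49-fold in contrast 5, and it was not called in contrasts 2, 3 and 4. Its GRO-seq values were not analysed here. CYP1A1, the main AHR-induced enzyme gene, was called higher in RNA-seq contrasts 2 to 5 (195-fold, 36.0-fold, 45.6-fold and 4.79-fold in the authors' deposited table) and not in contrast 1. In GRO-seq it was called higher in contrasts 2 and 4 (163-fold and 48.0-fold in the authors' deposited table) and not in contrasts 1, 3 and 5. CYP1B1, another CYP1 enzyme gene, was called higher in RNA-seq contrasts 1 to 5 (1.41-fold, 7.6-fold, 4.02-fold, 3.64-fold and 2.06-fold in the authors' deposited table). Errors after ± are standard errors of a log2 fold change, implied by each fold change with its p-value, and intervals are 95% intervals from them. Over all rows their median was 0.32 in GRO-seq and 0.058 in RNA-seq, so the mRNA values are much the more precise. The tables as used here hold no levels and no values per library. The depth is unknown, and the 7 genes cannot be ranked by level. Likewise the labelled cell type cannot be checked by the levels of its markers. A gene was called at a Benjamini-Hochberg adjusted p under 0.05 over the whole table.

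The mRNAs of 5 of the 7 genes passed the test in at least 1 contrast, and none of the 7 by as much as 1.5-fold. The share of all rows passing in at least 1 contrast was not computed. It cannot be below the 43.9% of contrast 1, so the count of 5 is not read as particular to these genes. In RNA-seq contrast 1, MAD2L2 and RAD18 rose and REV3L and POLH fell. These are 4 of 7, 2 in each direction, where 43.9% of all tested rows were called (23.2% higher and 20.7% lower), so the count is close to the background. Fewer cells expressing a gene and less RNA per cell cannot be told apart in these bulk samples. In RNA-seq contrast 3, RAD18 and POLK rose, 2 of 7 against 36.1% of all rows (18.3% higher and 17.8% lower). No member was called in RNA-seq contrast 2 (19.3% of all rows called), contrast 4 (8.77%) or contrast 5 (21.4%) from the authors' p-values, whose column names are those of limma. At an unadjusted p under 0.05 there was none in contrast 2 (31.8% of all rows), none in contrast 4 (22.6%) and 1 in contrast 5 (32.2%), POLI. The median log2 fold change of the 7 genes lay between -0.05 and 0.03 in the 5 RNA-seq contrasts, close to the medians of all rows, which lay between -0.009 and 0.006.

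**Figure D1:**
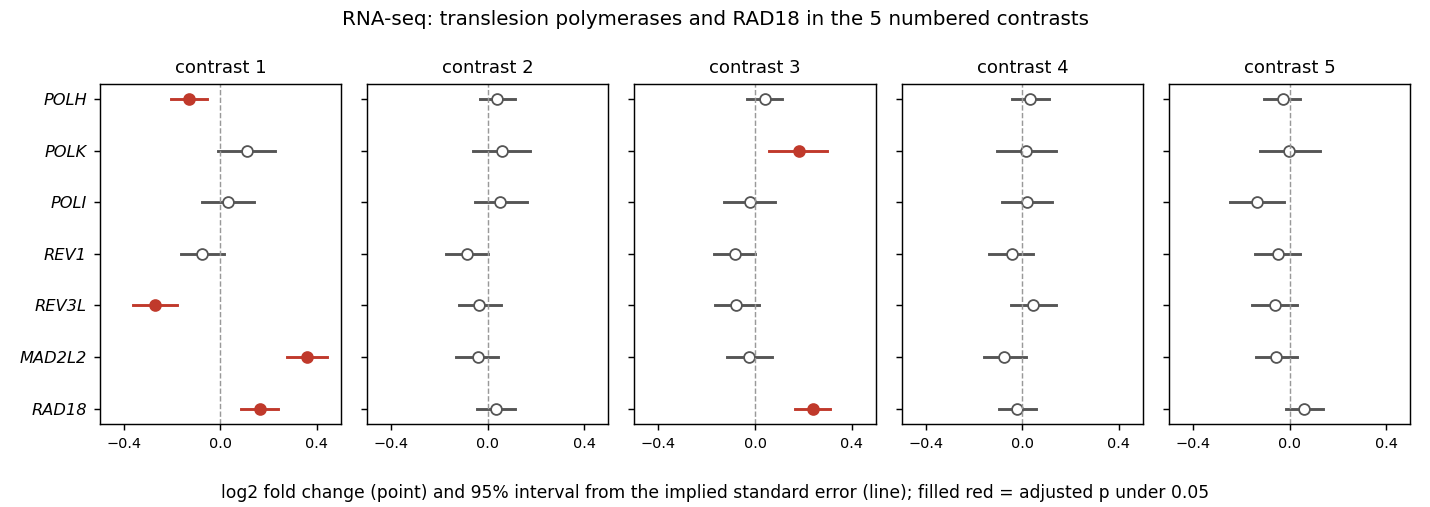
RNA-seq log2 fold changes of the 7 genes in each numbered contrast, with 95% intervals from the implied standard errors; filled red points have an adjusted p under 0.05. The 6 called values are REV3L, POLH, MAD2L2 and RAD18 in contrast 1 and POLK and RAD18 in contrast 3, and all points lie within 0.36 of 0 on the log2 scale.

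In GRO-seq, 1 of the 7 genes was called in 1 contrast. RAD18 fell in contrast 3, 1 of 7 against 18.1% of all rows (9.23% higher and 8.92% lower). No member was called in contrast 1 (0.787% of all rows), contrast 2 (15.5%), contrast 4 (3.11%) or contrast 5 (0.237%) from the authors' p-values in the form limma gives. At an unadjusted p under 0.05 there was none in contrast 1 (14.7% of all rows), contrast 2 (29.1%) or contrast 4 (15.6%), and 1 in contrast 5 (11.5%), REV3L. The intervals were wide: across the 7 genes they reached from 0.304-fold to 2.85-fold over the 5 contrasts, and both ends belong to MAD2L2, the least precise of the 7.

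**Figure D2:**
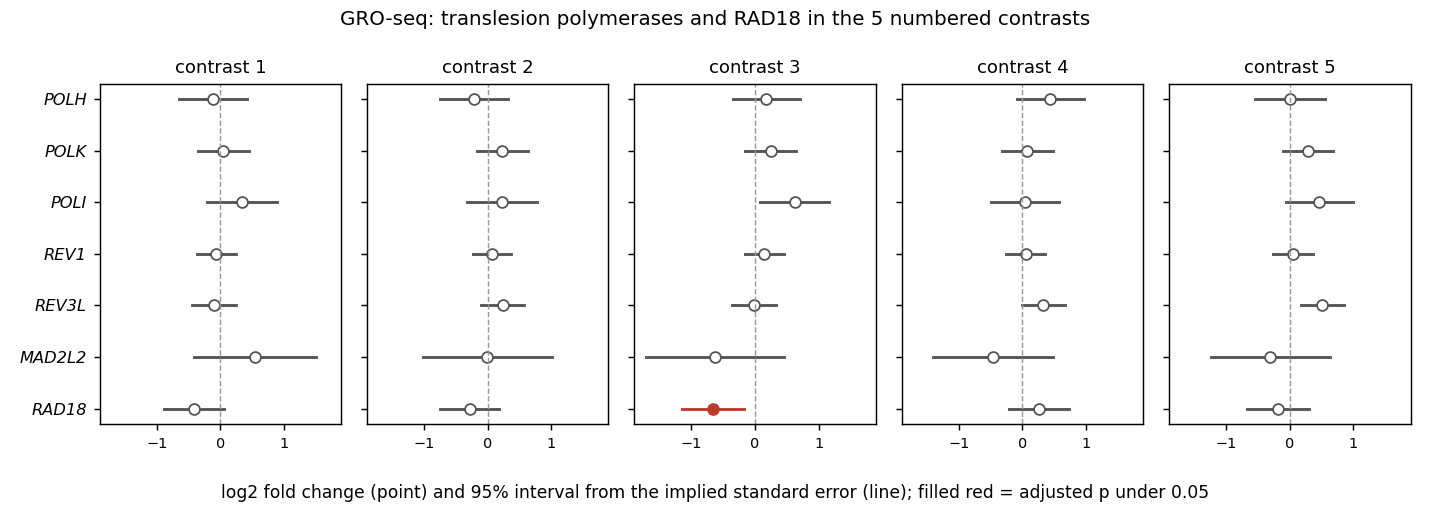
GRO-seq log2 fold changes of the 7 genes in each numbered contrast, with 95% intervals from the implied standard errors, on a wider axis than the RNA-seq plot. RAD18 in contrast 3 is the 1 filled red point (adjusted p under 0.05), at -0.66; MAD2L2 has the longest lines and REV1 the shortest.

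RAD18 encodes the E3 ligase that starts bypass by ubiquitinating PCNA. It lies at chromosome 3, 8877075 to 8963472 (GRCh38.p14, RefSeq). In the authors' deposited table, RAD18 mRNA was 1.12-fold in contrast 1 (log2 0.17 ± 0.0371, adjusted p = 0.00042) and 1.18-fold in contrast 3 (log2 0.24 ± 0.0366, adjusted p = 4.4e-06). These were its 2 mRNA calls, and both were increases. In contrasts 2, 4 and 5 its mRNA was 1.02-fold, 0.984-fold and 1.04-fold in the authors' deposited table, with intervals between 0.934-fold and 1.10-fold. In nascent RNA, RAD18 was 0.632-fold in contrast 3 in the authors' deposited table (log2 -0.66 ± 0.234, adjusted p = 0.0497). That call sits at the threshold, and the adjusted p was 0.091 when all 5 contrasts were adjusted together. Nascent RAD18 was 0.753-fold, 0.822-fold, 1.20-fold and 0.882-fold in contrasts 1, 2, 4 and 5 in the authors' deposited table, none of them called.

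The RAD18 promoter window is shown because RAD18 has more calls than the other 6 genes. Windows run from 250 bases before to 50 after a RefSeq start, written 5′ to 3′ on the gene's strand. All 7 genes matched, with 9 windows. Each window was searched on both strands for GCGTG, the core of the AHR element, which also occurs within hypoxia elements, and for TTCCCGC and TTGGCGC, cores of E2F elements. Capitals mark matches (also written as CACGC and GCGGGAA on the other strand). Of 35116 windows of this length, 36.5% hold GCGTG, 6.55% hold TTCCCGC and 3.04% hold TTGGCGC. The p53 full site, found in 0.0285% of windows, was in none of the 9. The RAD18 window, chr3:8963423-8963722 on the minus strand, holds no match to any of these letters, and so has no capitals.
RAD18: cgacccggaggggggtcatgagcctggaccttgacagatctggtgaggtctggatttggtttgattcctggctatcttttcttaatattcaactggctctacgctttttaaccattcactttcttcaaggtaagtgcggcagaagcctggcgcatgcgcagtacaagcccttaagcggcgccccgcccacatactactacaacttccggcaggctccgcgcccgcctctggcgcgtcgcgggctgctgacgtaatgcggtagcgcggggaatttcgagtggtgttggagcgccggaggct

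The polymerase zeta genes went opposite ways in RNA-seq contrast 1. REV3L, which encodes the catalytic subunit (chromosome 6, 111299033 to 111483711), was 0.829-fold in the authors' deposited table (log2 -0.27 ± 0.0447, adjusted p = 7.6e-06). MAD2L2, which encodes the adaptor between REV3L and REV1 (chromosome 1, 11674480 to 11691830), was 1.28-fold in the authors' deposited table (log2 0.36 ± 0.0432, adjusted p = 2.8e-08), the largest mRNA change among the 7 genes in any contrast. MAD2L2 also works outside bypass, in the shieldin complex that protects broken DNA ends and in mitosis. Its change was larger than that of 72.3% of all genes listed once in that contrast. In the other 4 contrasts neither mRNA was called: REV3L lay between 0.948-fold and 1.03-fold, and MAD2L2 between 0.949-fold and 0.983-fold, in the authors' deposited table.

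Nascent REV3L and MAD2L2 were called in no contrast. REV3L had the smallest unadjusted p of the 7 genes in GRO-seq, 0.0046 in contrast 5, where it was 1.43-fold in the authors' deposited table (log2 0.52 ± 0.165). It did not pass over the whole table (adjusted p = 0.20, and 0.059 with all 5 contrasts adjusted together). In contrasts 1 to 4 it was 0.933-fold, 1.18-fold, 0.989-fold and 1.26-fold in the authors' deposited table. Nascent MAD2L2 was 1.46-fold, 0.995-fold, 0.646-fold, 0.723-fold and 0.809-fold in contrasts 1 to 5 in the authors' deposited table, with standard errors of 0.454 to 0.528, the largest of the 7 genes. MAD2L2 shares 5196 bases with DRAXIN, and the counting is not stated to use strand. Nascent DRAXIN was 1.11-fold, 0.842-fold, 0.519-fold, 0.645-fold and 0.821-fold in contrasts 1 to 5 in the authors' deposited table, on the same side of 1 as nascent MAD2L2 in each and called in none. DRAXIN mRNA was 3.09-fold in RNA-seq contrast 1 in the authors' deposited table (adjusted p = 0.13). The part of DRAXIN reads in the MAD2L2 values was not tested.

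Both genes have 2 RefSeq windows, and the second of each is shown because it holds matches to both an AHR core and an E2F core, as the POLI window also does. The MAD2L2 window is chr1:11681099-11681398, minus strand, with TTCCCGC at position -62 and GCGTG at -52 from the start. The REV3L window is chr6:111483169-111483468, minus strand, with GCGTG at -168 and TTCCCGC at -87. The first windows, not shown, hold 1 match to GCGTG in MAD2L2 and 2 in REV3L, and neither holds an E2F core. The tables do not say which start was in use.
MAD2L2: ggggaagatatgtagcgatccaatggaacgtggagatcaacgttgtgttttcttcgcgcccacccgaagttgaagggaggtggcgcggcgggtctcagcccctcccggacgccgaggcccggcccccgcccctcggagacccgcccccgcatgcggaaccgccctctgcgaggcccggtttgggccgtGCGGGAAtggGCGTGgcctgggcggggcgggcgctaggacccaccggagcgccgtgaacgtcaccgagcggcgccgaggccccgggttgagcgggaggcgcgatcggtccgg
REV3L: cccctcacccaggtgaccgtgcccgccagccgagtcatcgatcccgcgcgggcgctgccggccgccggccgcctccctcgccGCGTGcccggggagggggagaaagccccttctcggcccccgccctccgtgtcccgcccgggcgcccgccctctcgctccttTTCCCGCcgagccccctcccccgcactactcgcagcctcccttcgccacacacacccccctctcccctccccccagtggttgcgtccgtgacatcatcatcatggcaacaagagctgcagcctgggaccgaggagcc

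Among the Y family polymerases, POLH and POLK each had 1 mRNA call. POLH, which encodes polymerase eta (chromosome 6, 43576185 to 43620523), was 0.915-fold in contrast 1 in the authors' deposited table (log2 -0.13 ± 0.0366, adjusted p = 0.0046). In contrasts 2 to 5 its mRNA was 1.03-fold, 1.03-fold, 1.02-fold and 0.980-fold in the authors' deposited table, and the intervals stayed between 0.929-fold and 1.08-fold. Nascent POLH was 0.924-fold, 0.865-fold, 1.13-fold, 1.36-fold and 1.00-fold in contrasts 1 to 5 in the authors' deposited table, none called. Other p53 targets were called higher in nascent RNA of contrast 3, CDKN1A at 2.92-fold (adjusted p = 4.9e-04) and MDM2 at 2.56-fold (adjusted p = 2.8e-05) in the authors' deposited table. The interval for nascent POLH there was 0.785-fold to 1.63-fold. Nascent MDM2 was also called higher in contrasts 2, 4 and 5, at 1.93-fold, 1.74-fold and 1.95-fold in the authors' deposited table. Nascent CDKN1A was 1.77-fold, 1.75-fold and 2.05-fold in contrasts 2, 4 and 5 in the authors' deposited table, none called. Whether p53 acted on POLH in any contrast was not tested. In RNA-seq contrast 1, where POLH fell, CDKN1A and MDM2 were also lower, with log2 fold changes of -0.23 (adjusted p = 1.3e-07) and -0.52 (adjusted p = 9.0e-13). In RNA-seq contrasts 2 to 5 CDKN1A was called higher, at 1.46-fold, 1.48-fold, 1.29-fold and 1.23-fold in the authors' deposited table, while POLH and MDM2 were called in none of them.

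POLK, which encodes polymerase kappa (chromosome 5, 75510774 to 75609991), was 1.13-fold in RNA-seq contrast 3 in the authors' deposited table (log2 0.18 ± 0.0574, adjusted p = 0.013). It was 1.08-fold in contrast 1 (adjusted p = 0.14), and in contrasts 2, 4 and 5, in which CYP1A1 was also higher, it was 1.04-fold, 1.01-fold and 1.00-fold in the authors' deposited table. The intervals for POLK in these 3 contrasts ended at 1.13-fold, 1.10-fold and 1.09-fold. Nascent POLK lay between 1.03-fold and 1.22-fold in all 5 contrasts in the authors' deposited table, with no call. POLK shares 1208 bases with CERT1, listed under its older symbol COL4A3BP, which was 1.15-fold in RNA-seq contrast 3 in the authors' deposited table (adjusted p = 8.7e-04). CERT1 was also called higher in RNA-seq contrasts 1 and 2, where POLK was not called. It was 1.14-fold and 1.12-fold there in the authors' deposited table (adjusted p = 0.0018 and 0.016). The part of CERT1 reads in the POLK value was not tested. Shorter overlaps join POLH to GTPBP2 (30 bases), which was 1.18-fold in RNA-seq contrast 1 in the authors' deposited table, on the other side of 1 from POLH, and REV1 to EIF5B (850 bases).

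The windows of POLK and POLH, the 2 Y family genes with a call, are given for their AHR cores. POLK has 1 match to GCGTG, at -169 in chr5:75511641-75511940, plus strand, and POLH has 2 in chr6:43575935-43576234, plus strand. REV1 has 3 matches to GCGTG, and POLI has 1, at -168, with TTCCCGC at -213. The share of all windows holding GCGTG was not matched for GC content. That content was 66.3% in the POLK window, 74.7% in the POLH window and 57.7% in the RAD18 window. Whether AHR acts at any of these matches was not tested.
POLK: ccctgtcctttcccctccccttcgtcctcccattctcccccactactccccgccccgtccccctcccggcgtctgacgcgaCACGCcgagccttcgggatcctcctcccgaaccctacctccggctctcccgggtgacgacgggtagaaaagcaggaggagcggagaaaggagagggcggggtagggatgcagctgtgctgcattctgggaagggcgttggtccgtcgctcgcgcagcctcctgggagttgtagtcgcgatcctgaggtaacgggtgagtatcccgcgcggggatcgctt
POLH: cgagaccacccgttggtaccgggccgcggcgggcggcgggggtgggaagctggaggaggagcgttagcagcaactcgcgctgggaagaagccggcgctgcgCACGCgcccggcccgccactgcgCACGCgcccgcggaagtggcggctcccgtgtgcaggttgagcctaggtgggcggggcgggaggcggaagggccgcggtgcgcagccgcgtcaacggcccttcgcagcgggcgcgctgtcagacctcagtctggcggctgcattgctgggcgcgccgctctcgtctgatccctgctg

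REV1 and POLI were called in neither assay. REV1 mRNA (chromosome 2, 99400477 to 99490202) was 0.949-fold, 0.943-fold, 0.945-fold, 0.969-fold and 0.966-fold in contrasts 1 to 5 in the authors' deposited table. All 5 were slightly below 1, the smallest adjusted p was 0.15, and contrasts may share groups, so they are not 5 independent values. Nascent REV1 lay between 0.959-fold and 1.11-fold in the authors' deposited table; with standard errors of 0.146 to 0.150 it was the most precisely measured of the 7 genes in GRO-seq. POLI, which encodes polymerase iota (chromosome 18, 54269479 to 54321266), was 0.911-fold in RNA-seq contrast 5 in the authors' deposited table (log2 -0.14 ± 0.0547, adjusted p = 0.077) and between 0.985-fold and 1.04-fold in the other 4. Nascent POLI was 1.26-fold, 1.17-fold, 1.55-fold, 1.03-fold and 1.38-fold in contrasts 1 to 5 in the authors' deposited table, all above 1, and the adjusted p in contrast 3 was 0.10.

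Because the assays have separate libraries, the difference between nascent and mRNA changes could be tested within each contrast number, over 13772 genes listed once in both tables and taking a number to mean the same comparison in both. RAD18 in contrast 3 passed. Its nascent RNA fell and its mRNA rose, with log2 fold changes of -0.66 in GRO-seq and 0.24 in RNA-seq, a difference of -0.90 ± 0.236 (95% interval -1.39 to -0.42, adjusted p = 0.0069). It was 1 of 7 genes, against 22.5% of all genes in contrast 3 (11.4% lower in GRO-seq). In contrast 1 the RAD18 values lay on the same sides, -0.41 in GRO-seq and 0.17 in RNA-seq on the log2 scale, but the difference of -0.58 ± 0.231 did not pass (adjusted p = 0.14).

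No member passed the test of the difference in contrast 1 (6.06% of all genes passed), contrast 2 (13.1%), contrast 4 (2.57%) or contrast 5 (0.966%). At an unadjusted p under 0.05 there was 1 in contrast 1 (21.3% of all genes), RAD18, none in contrast 2 (26.8%) or contrast 4 (14.3%), and 2 in contrast 5 (13.8%). These 2 were REV3L, with log2 fold changes of 0.52 in GRO-seq and -0.06 in RNA-seq (difference 0.58 ± 0.172, adjusted p = 0.093), and POLI, with 0.47 in GRO-seq and -0.14 in RNA-seq (difference 0.60 ± 0.261, adjusted p = 0.28). POLI in contrast 3 also missed, with 0.63 in GRO-seq and -0.02 in RNA-seq (difference 0.65 ± 0.269, adjusted p = 0.083). Contrasts within an assay may share groups that the headers do not name, so they were not tested against each other.

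**Figure D3:**
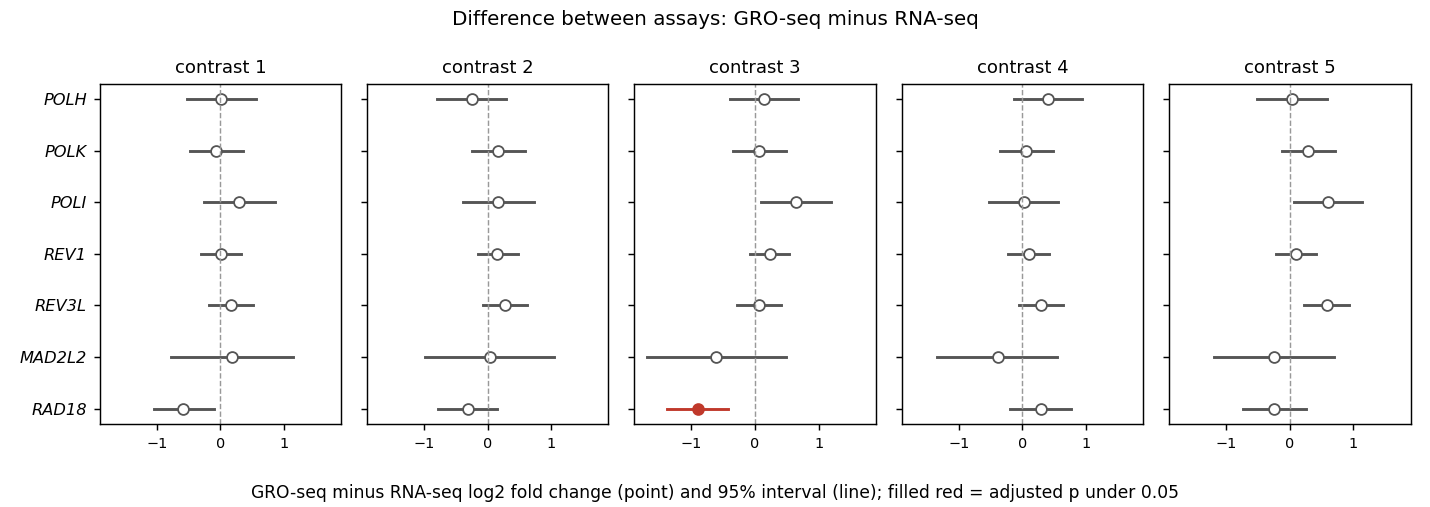
Difference between assays for each of the 7 genes and numbered contrasts, as the GRO-seq minus the RNA-seq log2 fold change with its 95% interval; filled red marks an adjusted p under 0.05. RAD18 in contrast 3 is the 1 filled point, at -0.90, and POLI and REV3L in contrast 5 lie to the right of 0 without passing.

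The wider pathway was read from 4 lists with 43 genes, of which 42 were listed in both tables (SHLD3 was not, and SHLD1 and SHLD2 were under older symbols). These lists were chosen with earlier results of these data known. In RNA-seq contrast 3, 10 of 17 genes of the PCNA ubiquitin switch were higher and none lower, against 18.3% of all rows higher. DTL, a ubiquitin ligase receptor that acts on PCNA-bound proteins, was 1.18-fold in the authors' deposited table (adjusted p = 1.1e-06). UBE2A, a ubiquitin-conjugating partner of RAD18, was 1.18-fold (adjusted p = 7.5e-06) and VCP, the unfoldase that extracts ubiquitinated proteins, 1.09-fold (adjusted p = 1.6e-04) in the authors' deposited table. The list's median log2 fold change was 0.12, against -0.009 for all rows. The share of all rows was not matched for precision. Of all genes listed once, 16.4%, 25.6% and 2.72% had a smaller median standard error than DTL, UBE2A and VCP. Replicative polymerase genes had 2 of 10 higher and none lower, other bypass and gap polymerases 3 of 8 higher and 2 lower, and MAD2L2 partners 2 of 7 higher and none lower. POLQ, which encodes the end-joining polymerase theta, was 1.22-fold and POLE2, a subunit of polymerase epsilon, 1.22-fold in the authors' deposited table (adjusted p = 3.7e-06 and 2.8e-04).

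Several genes of these lists had lower nascent RNA in the same contrast. Of the 10 replicative polymerase genes, 6 were lower in GRO-seq contrast 3 and none higher, against 8.92% of all rows lower, with a median log2 fold change of -0.74. POLE2 was 0.339-fold (adjusted p = 0.0017), POLE, the catalytic subunit of polymerase epsilon, 0.524-fold (adjusted p = 0.0073) and POLA2, a subunit of polymerase alpha, 0.473-fold (adjusted p = 0.0088) in the authors' deposited table. Of these 6 genes, POLE2 and POLA2 were called higher in RNA-seq contrast 3. The mRNAs of PRIM2, POLE, POLD1 and POLA1 were 1.1-fold, 0.981-fold, 0.964-fold and 0.95-fold there in the authors' deposited table, none called. Of the PCNA ubiquitin switch 4 of 17 were lower and 1 higher; DTL was 0.287-fold (adjusted p = 0.0066) and WDR48, the cofactor of the deubiquitinase USP1, 1.87-fold (adjusted p = 0.0028) in the authors' deposited table. By the test of the difference between assays, 14 of the 42 genes were lower in GRO-seq than in RNA-seq in contrast 3 and 2 higher, against the 11.4% of all genes that were lower. Of the 7 translesion genes, RAD18 lay on this side, and the other 6 did not pass. In contrast 1, 4 of the 42 genes were lower in GRO-seq than in RNA-seq and 1 higher (3.27% of all genes lower), and in contrast 2, 5 were lower and 2 higher (6.96% lower). DTL and POLE2 were lower in GRO-seq by this test in contrasts 1, 2 and 3. None of the 42 passed it in contrast 4 or contrast 5, where 3 and 12 had an unadjusted p under 0.05 (14.3% and 13.8% of all genes).

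**Figure D4:**
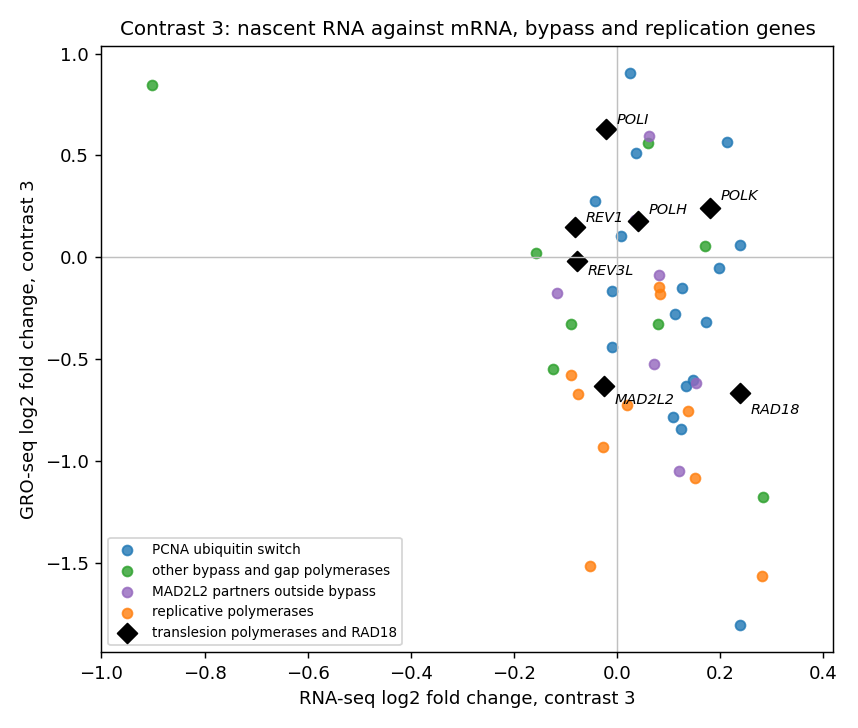
Contrast 3 log2 fold changes in GRO-seq (vertical) and RNA-seq (horizontal) for the 7 genes (black diamonds, named) and 42 pathway genes (dots, coloured by list). RAD18, at -0.66 in GRO-seq and 0.24 in RNA-seq, sits in the lower right among genes with lower nascent RNA and higher mRNA. The 4 Y family polymerases have nascent values above 0, none of them called.

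In contrast 1, RNA-seq gave 5 of 10 replicative polymerase genes higher and none lower, 4 of 17 genes of the PCNA ubiquitin switch higher and 3 lower, 2 of 8 other polymerases higher and 3 of 7 MAD2L2 partners higher, with 23.2% of all rows higher and 20.7% lower. TP53BP1, which acts upstream of shieldin, was 1.16-fold (adjusted p = 5.9e-06) and TRIP13, the ATPase that remodels MAD2L2, 1.15-fold (adjusted p = 1.7e-05) in the authors' deposited table, on the same side as MAD2L2. SHLD1, SHLD2 and MAD2L1BP lay on the other side, at 0.876-fold, 0.951-fold and 0.994-fold in the authors' deposited table, none called. The median log2 fold change of the MAD2L2 partners was 0.01, against 0.006 for all rows. None of the 42 genes was called in GRO-seq contrasts 1, 4 and 5 from the authors' p-values of limma form; at an unadjusted p under 0.05 there were 8 of 42 in contrast 1 (14.7% of all rows), 5 in contrast 4 (15.6%) and 8 in contrast 5 (11.5%). In contrast 2, GRO-seq gave 5 of 42 genes as higher and 5 as lower (7.63% and 7.83% of all rows), and RNA-seq gave 2 as higher and 3 as lower (9.64% and 9.63%). POLB, the base excision repair polymerase, was called higher in both, 1.58-fold in GRO-seq (adjusted p = 0.0083) and 1.15-fold in RNA-seq (adjusted p = 4.8e-04) in the authors' deposited table. UBE2B was also called higher in both, 1.85-fold in GRO-seq (adjusted p = 0.044) and 1.2-fold in RNA-seq (adjusted p = 0.012) in the authors' deposited table. POLA2 was called lower in both, 0.434-fold in GRO-seq (adjusted p = 0.0047) and 0.887-fold in RNA-seq (adjusted p = 0.012) in the authors' deposited table. Of the 42 mRNAs, 2 were lower in contrast 4 (4.9% of all rows), and 6 were higher and 3 lower in contrast 5 (10.5% and 10.9%).

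The precision behind these values was weakly related to gene length in GRO-seq. Across 14182 genes with a RefSeq length, the implied standard error fell with length (Spearman's rho -0.255, a description across genes, which are not independent), against -0.0787 over 14919 genes in RNA-seq. MAD2L2, the shortest of the 7 genes at 17.4 kb, had a median standard error of 0.466 in GRO-seq, and REV3L, the longest at 185 kb, 0.165. In RNA-seq they had 0.0432 and 0.0447. No member was called in 3 or more RNA-seq contrasts, which was the condition set for naming genes of like pattern, so none is named.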

How the data were processed

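GRO-seq and RNA-seq had 24 libraries each, 48 together, and sample titles set the groups; a protocol text gives the short exposure another length. The tables as the authors deposited them hold a linear fold change, that is a ratio, and a p-value without adjustment for every gene and numbered contrast, per the file headers, and no value per library. The submitters' processing notes name BWA 0.7.16a, featureCounts and limma (GRO-seq), STAR and DESeq (RNA-seq) and the build GRCh38. Settings, annotation, filters and strand use were not given in the sources used here, and counting without strand can add reads of an overlapping gene.

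Here each contrast's p-values were adjusted (Benjamini-Hochberg) over every row with a symbol; 156 RNA-seq rows (0.994%) lacked one and were left out. An implied standard error was obtained by dividing the absolute log2 of the deposited ratio by Student's quantile for its p-value. For GRO-seq 25 and for RNA-seq 31 degrees of freedom were taken, the values giving the least variation among the 5 errors of a gene. The two-sided test of the difference between assays used both errors with Welch-Satterthwaite degrees of freedom, adjusted over the 13772 shared genes. The 7 genes, the 4 pathway lists, the motifs and the tests were chosen with earlier results of these data known. All 7 genes are named, and from each list up to 3 called genes with the smallest adjusted p per contrast and table, of which the text gives part. RefSeq (GRCh38.p14) gave coordinates and sequences, with lengths for 96.2% of GRO-seq and 96.1% of RNA-seq genes. The adjustment, the implied standard errors and the test of the difference between assays were tested on simulated data. The other steps were not. Alternatives were other adjusted p thresholds, a minimum of 1.5-fold, 2 other scopes of adjustment and normal quantiles. Scripts ran in Python 3.11.15 with scipy 1.17.1, numpy 2.4.6, matplotlib 3.10.9 and pandas 2.3.3.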

Additional observations from a re-analysis of the deposited data

How the results depend on the processing

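At an adjusted p under 0.01, the count of the 7 genes called became 0 in GRO-seq contrast 3 (RAD18 lost, 1 in the main analysis) and 1 in RNA-seq contrast 3 (POLK lost, 2 in the main analysis). The RAD18 call in GRO-seq was also lost, leaving 0, when p-values were adjusted over the 5 contrasts together (adjusted p = 0.091). With a minimum of 1.5-fold, 0 genes were left in RNA-seq contrast 1 and 0 in RNA-seq contrast 3, while RAD18 in GRO-seq contrast 3 was kept. At an adjusted p under 0.1, RNA-seq contrast 5 had 1 gene (POLI), and the difference between assays had 2 genes in contrast 3 (RAD18 and POLI) and 1 in contrast 5 (REV3L). Adjustment over the genes listed once in both tables changed none of the 10 counts, and normal quantiles changed none of the 5 counts of differences. The RAD18 difference in contrast 3 had an adjusted p of 0.0069 with Student's quantiles and 0.0048 with normal ones. No direction reversed, since each alternative keeps the deposited fold change. Leaving out a replicate could not be run because no values per library were used. No paired analysis was possible because the tables hold comparisons and no value per library.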
